A study of Mus musculus with 36 samples.

Results

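Rpl21 and Rpl31 encode proteins of the large ribosomal subunit, and the mouse genome holds many processed pseudogenes of each. The 7 genes described here were Rpl21 with Rpl21-ps8, Rpl21-ps10 and Rpl21-ps15, and Rpl31 with Rpl31-ps9 and Rpl31-ps14, found by their GENCODE symbols among the 55492 rows of the count table. The same table held 39 rows named as Rpl21 or Rpl31 pseudogenes, and 300 rows named as ribosomal protein (RP) pseudogenes in all. The 7 genes were chosen by their measured levels in DEX and control libraries, so the values of that comparison stand below as a description without a test.

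RNAseq counts came from dissociated cortical cells of embryonic day 18 mice (C57EDCX, a commercial preparation). On day 11 in vitro the growth medium was replaced for 72 h by fresh medium (Control), by medium with 1 µM dexamethasone (DEX), a glucocorticoid receptor agonist, or by medium with 1 µM DEX and 1 µM mifepristone (RU-486), an antagonist of the same receptor. Each group had 12 libraries, 6 in each of the 2 batches named in the labels, and no genotype, allele or number of pooled embryos is given in the sources used here. The study's methods call the libraries of a group experimental replicates, but neither they nor the labels say that these came from separate cultures, so the p-values below measure the spread between these libraries, which may be technical.

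Ribosomal proteins join ribosomal RNA in the particles that translate mRNA, and their genes are among the most highly transcribed in most cells. Processed pseudogenes are copies of a spliced mRNA that was reverse transcribed and inserted elsewhere in the genome, so they lack the introns of the parent gene. A sequencing read that crosses no difference between such a copy and its parent fits both places, which makes the assignment of reads to either of them uncertain.

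The libraries held 12.1 to 82.4 M counts, with medians of 30.95 M in Control, 21.7 M in DEX and 24.25 M in DEX + RU-486. The RNA integrity number (RIN) given in the labels was between 3.9 and 9.2 in batch 1. In batch 2 it was between 1.4 and 2.7 in 6 libraries, 2 of each group, and between 7.4 and 8.7 in the other 12. In batch 1 the DEX libraries had fewer counts (12.1 to 22.3 M against 24.2 to 82.4 M in Control) and lower RIN (3.9 to 7.8 against 7.8 to 9.2), so depth, RIN and DEX cannot be told apart there. Neuron markers had a median summed level of 3385.3 CPM (for these markers, counts scaled to the library total) in Control, 2253.1 in DEX and 2471.7 in DEX + RU-486. The 5 oligodendrocyte markers had medians of 318.4, 669.2 and 384.8 CPM, with ranges of 72.4 to 1549.1, 244.9 to 1530.4 and 167.4 to 670.9 CPM. The 5 astrocyte markers stayed between 6.8 and 40.7 CPM and the 5 microglia markers at or below 4.3 CPM, while no listed marker was at 0 in all libraries. The part of these markers in the results below was not tested, and in such bulk libraries fewer cells of a type and less RNA per cell cannot be told apart.

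The last 300 bases of each parent's coding sequence and the matching stretch of its pseudogenes are shown because the few bases that separate them are the only positions at which a read inside them can tell parent from copy. Sequences are those of GENCODE M21 transcripts (GRCm38), written 5′ to 3′ on the transcribed strand. In the pseudogenes, capitals mark each base that differs from the parent, and in the parents, capitals mark each position at which a pseudogene printed here differs. Rpl21 (ENSMUSG00000041453) lies at chr5:146832890-146837032 on the plus strand, and its coding sequence of 483 bases is spread over 5 exons. Rpl21-ps10 lies at chr3:38107443-38107922 and Rpl21-ps15 at chrX:151215167-151215649, both on the minus strand, and positions 184 to 483 of the coding sequence are printed.
Rpl21: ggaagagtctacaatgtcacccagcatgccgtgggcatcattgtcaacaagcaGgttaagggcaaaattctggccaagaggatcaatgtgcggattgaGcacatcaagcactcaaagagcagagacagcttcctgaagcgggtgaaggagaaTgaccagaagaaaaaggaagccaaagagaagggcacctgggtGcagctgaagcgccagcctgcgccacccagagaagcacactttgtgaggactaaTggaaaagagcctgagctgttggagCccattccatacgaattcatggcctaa
Rpl21-ps10: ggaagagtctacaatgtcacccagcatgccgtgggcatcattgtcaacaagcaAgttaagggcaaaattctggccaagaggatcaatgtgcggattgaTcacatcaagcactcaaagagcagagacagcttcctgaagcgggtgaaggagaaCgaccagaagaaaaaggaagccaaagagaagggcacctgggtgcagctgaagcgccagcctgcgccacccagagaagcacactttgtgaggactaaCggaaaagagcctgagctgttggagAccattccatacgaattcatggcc
Rpl21-ps15: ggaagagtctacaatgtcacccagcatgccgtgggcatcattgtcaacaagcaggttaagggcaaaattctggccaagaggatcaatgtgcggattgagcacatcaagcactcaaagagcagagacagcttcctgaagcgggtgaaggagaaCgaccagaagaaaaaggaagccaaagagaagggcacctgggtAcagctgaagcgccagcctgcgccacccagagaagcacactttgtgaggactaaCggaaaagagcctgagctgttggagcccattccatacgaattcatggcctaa

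Rpl31 (ENSMUSG00000073702) lies at chr1:39367842-39371911 on the plus strand, with a coding sequence of 378 bases in 4 exons. Rpl31-ps9 lies at chr1:129801387-129801764 and Rpl31-ps14 at chr1:66948563-66948940, both on the minus strand of the same chromosome, positions 79 to 378 are printed, and the capitals have the same meaning.
Rpl31: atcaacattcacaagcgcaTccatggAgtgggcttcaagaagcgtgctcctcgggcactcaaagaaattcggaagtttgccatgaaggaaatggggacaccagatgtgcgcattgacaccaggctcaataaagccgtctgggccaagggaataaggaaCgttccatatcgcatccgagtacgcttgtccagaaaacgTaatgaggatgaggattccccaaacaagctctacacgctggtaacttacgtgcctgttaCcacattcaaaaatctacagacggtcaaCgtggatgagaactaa
Rpl31-ps9: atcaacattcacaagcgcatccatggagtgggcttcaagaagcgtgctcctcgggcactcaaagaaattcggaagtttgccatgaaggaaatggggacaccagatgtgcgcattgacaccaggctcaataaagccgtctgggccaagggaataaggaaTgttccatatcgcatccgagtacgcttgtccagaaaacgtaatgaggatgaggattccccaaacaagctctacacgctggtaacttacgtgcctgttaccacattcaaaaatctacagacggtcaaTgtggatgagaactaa
Rpl31-ps14: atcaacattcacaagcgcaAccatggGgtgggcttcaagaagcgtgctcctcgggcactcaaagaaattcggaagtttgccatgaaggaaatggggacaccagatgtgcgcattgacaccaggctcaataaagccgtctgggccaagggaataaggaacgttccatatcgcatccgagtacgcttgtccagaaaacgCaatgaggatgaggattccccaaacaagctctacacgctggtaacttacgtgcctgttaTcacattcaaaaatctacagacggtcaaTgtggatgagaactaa

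All 5 pseudogenes were nearly intact copies of the coding sequence. With positions counted from 1 at the A of the parent's start codon, Rpl21-ps15 differed from Rpl21 by 3 substitutions (T336C, G378A and T432C), an identity of 99.4%. Rpl21-ps10 carried 7 substitutions (G21A, A62T, G237A, G282T, T336C, T432C and C457A) and lacked the last 3 bases, which are the stop codon. Rpl21-ps8, at chr18:82523539-82524021 on the minus strand, had 7 substitutions and an identity of 98.6%. Rpl31-ps9 differed from Rpl31 by 2 substitutions (C237T and C363T), and Rpl31-ps14 by 6 (G36T, T98A, A105G, T276C, C335T and C363T). G21A, A62T and G36T lie before the printed stretches. Rpl21-ps8, Rpl21-ps15, Rpl31-ps9 and Rpl31-ps14 kept an open reading frame of the parent's full length.

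Some of these differences were not particular to 1 copy. T336C and T432C each occurred in 13 of the 15 rows named as Rpl21 pseudogenes, and C363T in 22 of the 24 named as Rpl31 pseudogenes. Copies of either gene under other names were not counted. The 3 Rpl21 pseudogenes differed from each other by 6 bases (Rpl21-ps10 and Rpl21-ps15), 8 bases (Rpl21-ps8 and Rpl21-ps15) and 12 bases (Rpl21-ps8 and Rpl21-ps10). Rpl31-ps9 and Rpl31-ps14 differed from each other by 6 bases.

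How far a read could separate copy from parent was described by sliding windows along each pseudogene. Of all windows of 100 bases, the share found letter for letter in a transcript of the parent was 27.6% for Rpl21-ps8, 19.7% for Rpl21-ps10, 61.5% for Rpl21-ps15, 58.4% for Rpl31-ps9 and 25.4% for Rpl31-ps14. At 150 bases it fell to 9.3%, 7.6%, 55.7%, 38.0% and 9.2% in the same order. The longest stretch without a difference from the parent was 335 bases in Rpl21-ps15 and 236 bases in Rpl31-ps9, against 170 to 180 bases in the other pseudogenes. Among the annotated transcripts, 303 of 334 windows of 150 bases of Rpl21-ps8 and 208 of 229 of Rpl31-ps14 occurred nowhere else, but only 106 of 334 of Rpl21-ps15. In the other direction, 55.7% of the 150-base windows of the Rpl21 coding sequence and 100% of those of Rpl31 also occurred in another annotated gene. One such gene, Rpl31-ps8, was identical to the Rpl31 coding sequence over all 378 bases. The study's methods say that the files of these libraries were processed with its pipeline. That pipeline includes an alignment without mismatches that discards reads mapping to several places. The read length, and whether the deposited counts came from that alignment or from the standard one, are not given in the sources used here. Counts of all 7 genes are therefore uncertain to the extent that reads were shared.

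Of the 39 Rpl21 and Rpl31 pseudogenes, 16 had a mean count above 5 over the 36 libraries, the filter applied to all genes, and all 5 pseudogenes described here were among them. These 16 carried 0 to 19 substitutions against the parent (median 7), whereas the 23 pseudogenes at or below a mean count of 5 carried 4 to 40 (median 24). The mean count was 471.11 for Rpl21-ps8, 335.28 for Rpl21-ps15, 315.69 for Rpl21-ps10, 179.22 for Rpl31-ps9 and 28.5 for Rpl31-ps14. Among the copies not described further, Rpl31-ps11 (718.5) and Rpl31-ps8 (371.9) had the highest mean counts of the Rpl31 family, and Rpl21-ps12 (258.6) and Rpl21-ps11 (14.6) of the Rpl21 family.

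**Figure D1:**
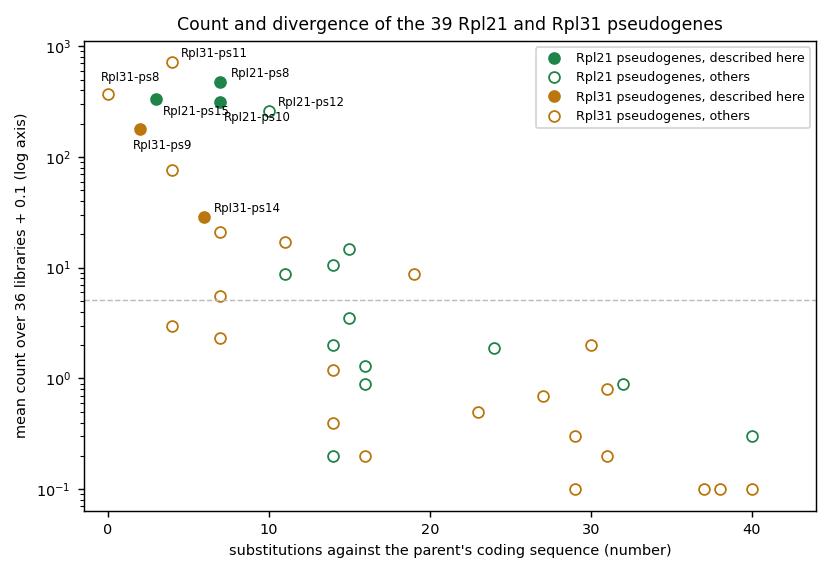
Mean count over the 36 libraries (vertical log axis, 0.1 added) against the number of substitutions from the parent's coding sequence (horizontal axis) for the 39 rows named as Rpl21 (green) or Rpl31 (brown) pseudogenes. Filled points are the 5 pseudogenes described here, with 2 to 7 substitutions, and the dashed line marks the mean count of 5 above which 16 pseudogenes lie.

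The pseudogenes lie at scattered positions, several of them inside other genes. Rpl21-ps8 lies within an intron of Mbp, which encodes myelin basic protein, Rpl21-ps15 within an intron of the kinase gene Wnk3, and Rpl31-ps9 within an intron of Thsd7b, each on the strand opposite to the host. Rpl21-ps10 lies within an intron of the long non-coding RNA Gm43821 on the same strand, a row with a mean count of only 0.17, and no annotated gene overlaps Rpl31-ps14. The 3′ end of Rpl31 overlaps Tbc1d8 on the opposite strand, with mean counts of 3366.78 and 358.03. Whether the counting used strand is not given in the sources used here, so reads of the overlapping genes cannot be told apart from those of Rpl31, Rpl21-ps8, Rpl21-ps15 and Rpl31-ps9 where they share sequence.

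Compared per length, both parents stood above their pseudogenes. For the 7 genes, here and below, CPM are counts scaled to the library total multiplied by its TMM factor, which adjusts for composition. On the scale of CPM per kb of exon, the mean level over all 36 libraries was 108.8 ± 60.2 (SD) for Rpl21 and 88.9 ± 55.0 for Rpl31. It was 44.6 ± 24.4 for Rpl21-ps8, 32.5 ± 18.98 for Rpl21-ps15, 29.7 ± 15.9 for Rpl21-ps10, 23.1 ± 16.9 for Rpl31-ps9 and 3.64 ± 2.45 for Rpl31-ps14. Neighbours in this order were closer to each other than the SD of the higher one, except Rpl31-ps9 and Rpl31-ps14. Among 86 RP genes, Rpl21 ranked 36th and Rpl31 43rd by this measure, and 13th and 47th by CPM. The length used is that of all annotated exons together, 3400 bases for Rpl21 and 1662 for Rpl31, which is longer than any of their coding transcripts (at most 1856 and 1049 bases), so the parents' levels per kb are lower than a transcript length would give.

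The pseudogene counts were a small share of the parent counts. Over the 36 libraries the count of a pseudogene, as a percentage of the count of its parent, was 1.04% to 14.9% (median 5.72%) for Rpl21-ps8, 0.379% to 8.04% (median 3.55%) for Rpl21-ps10 and 0.799% to 8.76% (median 3.71%) for Rpl21-ps15. It was 0.592% to 13.4% (median 5.75%) for Rpl31-ps9 and 0.19% to 2.52% (median 0.784%) for Rpl31-ps14. The lowest percentage of Rpl21-ps8, Rpl21-ps10, Rpl21-ps15, Rpl31-ps9 and Rpl31-ps14 came from a single library, Control replicate 24 of batch 2. In it Rpl21 had 12394 counts but Rpl21-ps8 had 129, Rpl21-ps10 47, Rpl21-ps15 99, Rpl31-ps9 28 and Rpl31-ps14 9. The same library held the smallest share of counts in all other processed pseudogenes of the table, 0.196% against at least 0.356% in the other 35.

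**Figure D2:**
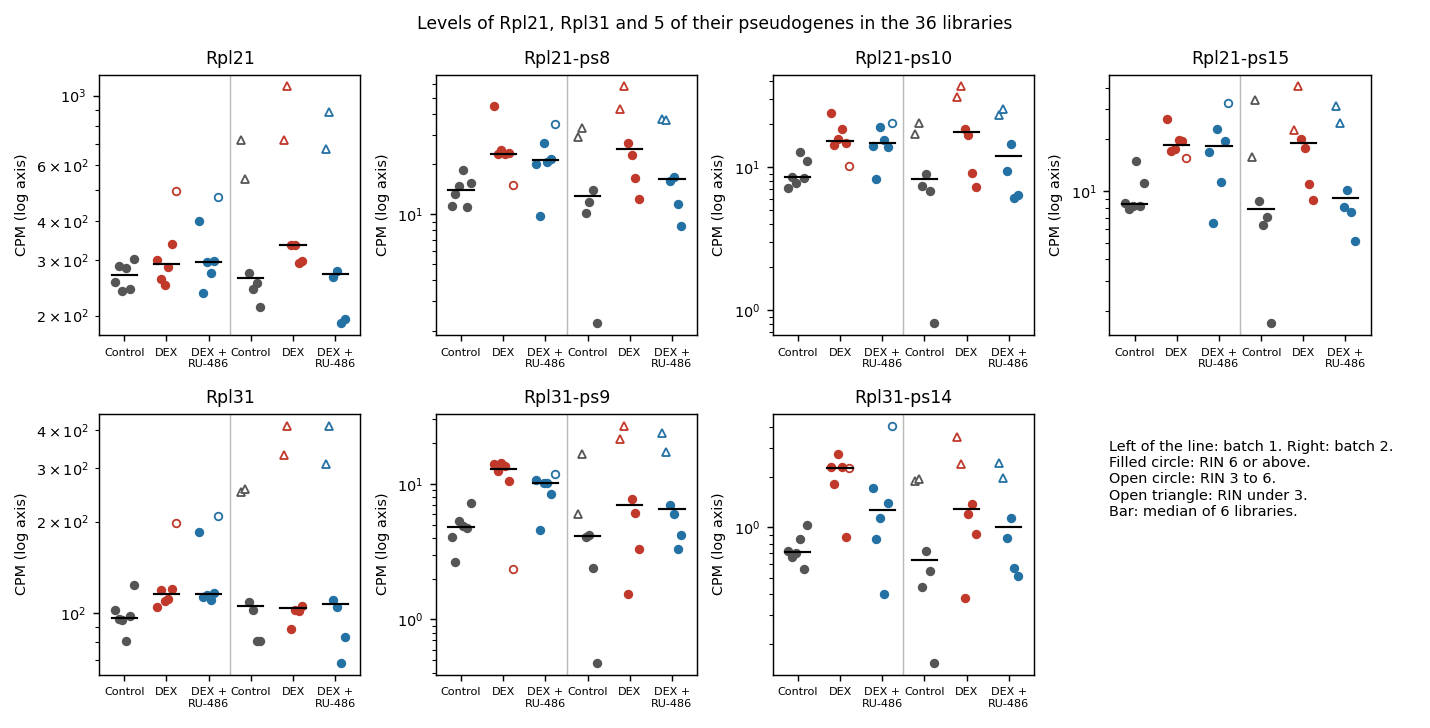
Level of each gene in CPM (vertical log axis, scaled by TMM-normalised library size) in the 36 libraries, by treatment and batch, with RIN shown by the marker and a bar at the median of 6 libraries. In batch 2 the 6 libraries of RIN under 3 (triangles) lie above the 12 of RIN above 7 for Rpl21, at 544.7 to 1070 CPM against at most 334.9 CPM, and for Rpl31, Rpl21-ps8 and Rpl31-ps14, while 1 of the 6 lies within the range of those 12 for Rpl21-ps10, Rpl21-ps15 and Rpl31-ps9.

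The question behind the DEX libraries was whether a glucocorticoid shifts the transcripts of RP genes and their pseudogenes. The parents overlapped between DEX and Control in batch 1. Rpl21 had a lowest, median and highest level of 239.4, 269.2 and 301.8 CPM in the 6 Control libraries and of 249.4, 292.2 and 497.0 CPM in the 6 DEX libraries. Rpl31 had 80.9, 96.6 and 123.5 CPM in Control and 104.9, 115.2 and 197.8 CPM in DEX. The groups overlapped for both parents, with 2 DEX libraries above every Control library for Rpl21 and 1 for Rpl31, while all 6 DEX libraries of Rpl31 were above 5 of the 6 Control libraries. Fitted in batch 1 alone, the log2 fold change was 0.29 ± 0.17 (SE) for Rpl21 and 0.39 ± 0.18 for Rpl31.

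The pseudogene levels in the same libraries are given as a description, since the 7 genes were chosen by levels in DEX and Control. Rpl21-ps15 had 7.82, 8.35 and 14.9 CPM in Control and 15.6, 18.6 and 26.3 CPM in DEX, so all 6 DEX libraries were above every Control library, as for 3.21% of all genes. Rpl21-ps8 had 11.1, 13.97 and 18.4 CPM in Control and 15.04, 23.03 and 44.6 CPM in DEX. Rpl21-ps10 had 7.19, 8.49 and 12.9 CPM in Control and 10.2, 15.3 and 24.1 CPM in DEX. For both of them 5 of the 6 DEX libraries were above every Control library, a pattern whose share over all genes was not computed.

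The Rpl31 copies had the same order of groups. Rpl31-ps9 had 2.67, 4.78 and 7.21 CPM in Control and 2.34, 12.9 and 14.3 CPM in DEX, with 5 DEX libraries above every Control library and DEX replicate 12, of RIN 3.9, below them all. Rpl31-ps14 had 0.566, 0.717 and 1.03 CPM in Control and 0.872, 2.29 and 2.77 CPM in DEX, again with 5 DEX libraries above every Control library. Over all genes tested, 0.0147% were called higher in DEX at an adjusted p under 0.05 by edgeR, and since the 7 genes were chosen with this contrast known, nothing is read from their counts.

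In batch 2, where each group holds 2 libraries of RIN under 3, the groups overlapped for all 7 genes. Among the batch 2 libraries of RIN above 7, Rpl21 was between 212.5 and 272.5 CPM in 4 Control libraries and between 293.3 and 334.9 CPM in 4 DEX libraries. Rpl21-ps8 was between 2.21 and 13.9 CPM in Control and between 12.3 and 26.7 CPM in DEX there. Rpl21-ps15 was between 1.70 and 8.71 CPM in Control and between 8.88 and 19.97 CPM in DEX. The 4 DEX libraries were above the 4 Control libraries for Rpl21 and Rpl21-ps15, as for 4.47% of all genes, and the groups overlapped for Rpl21-ps8. Rpl31-ps9 also overlapped, with 0.48 to 4.19 CPM in Control and 1.55 to 7.78 CPM in DEX, as did Rpl21-ps10 (0.806 to 9.05 and 7.31 to 18.5 CPM) and Rpl31-ps14 (0.154 to 0.726 and 0.378 to 1.39 CPM). Rpl31 overlapped as well, and its highest value there was in a Control library, with 80.8 to 108.9 CPM in Control and 88.6 to 105.8 CPM in DEX. For each pseudogene the lowest of these Control values came from Control replicate 24. Without it the Control values began at 10.2 CPM for Rpl21-ps8, 6.84 for Rpl21-ps10 and 6.37 for Rpl21-ps15. They then began at 2.38 CPM for Rpl31-ps9 and 0.437 for Rpl31-ps14.

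The fitted log2 fold changes of DEX over Control, with all 36 libraries and batch as a covariate, were 0.35 ± 0.24 (SE) for Rpl21 and 0.37 ± 0.27 for Rpl31. They were 0.86 ± 0.29 for Rpl21-ps8, 0.90 ± 0.30 for Rpl21-ps10, 0.86 ± 0.32 for Rpl21-ps15, 1.13 ± 0.40 for Rpl31-ps9 and 1.13 ± 0.37 for Rpl31-ps14. With RIN as a further covariate the parents were at 0.02 and -0.05, and the pseudogenes at 0.63, 0.66, 0.69, 0.76 and 0.82. In the 28 libraries of RIN 6 or above the parents were at 0.22 and 0.16 and the pseudogenes at 1.01, 1.00, 1.16, 1.17 and 1.27. Control replicate 24 is among these libraries. For comparison, with all 36 libraries the median was 0.30 over 86 RP genes, 84 of them positive, and 0.70 over 135 RP pseudogenes, 130 of them positive. In the same fit, 5 direct targets of the glucocorticoid receptor had a median of 0.26, all positive, with none called at an adjusted p under 0.05 by edgeR.

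**Figure D3:**
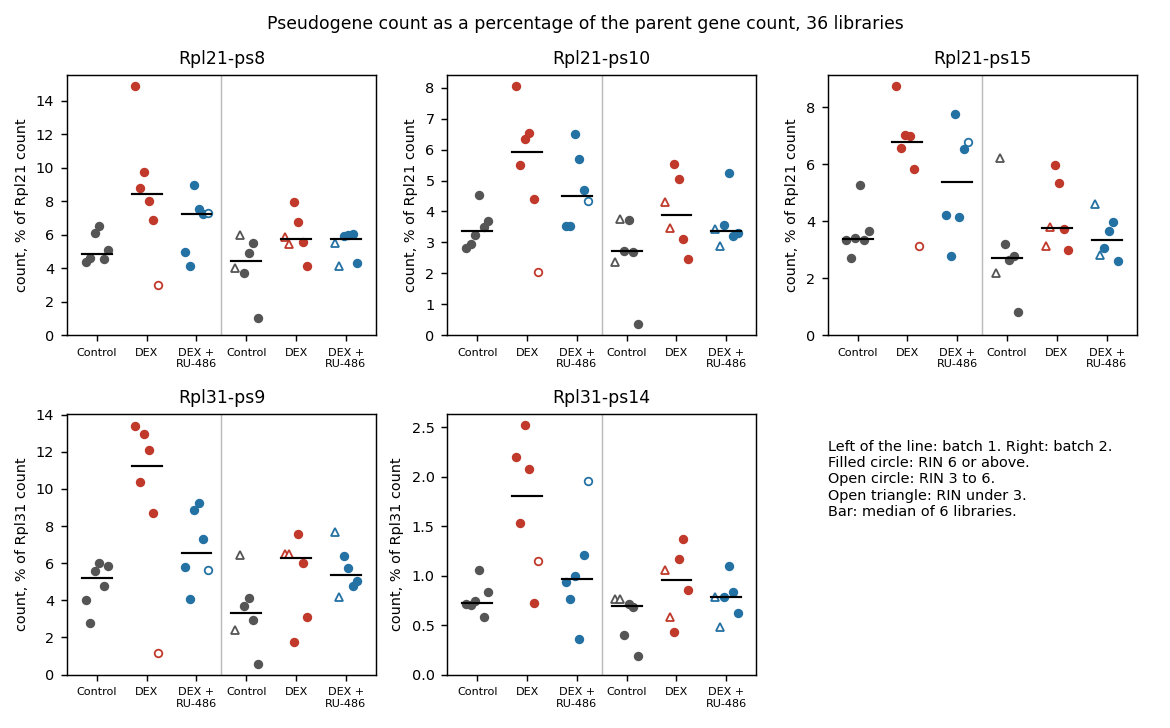
Count of each pseudogene as a percentage of the count of its parent (vertical axis) in the 36 libraries, batch 1 to the left of the grey line and batch 2 to the right, with a bar at the median of 6 libraries. In batch 1 the DEX medians lie above the Control medians for all 5 pseudogenes, 8.41% against 4.84% for Rpl21-ps8 and 11.2% against 5.19% for Rpl31-ps9, while DEX replicate 12 (the open circle among the DEX libraries) is the lowest of the 6 for each pseudogene except Rpl31-ps14.

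Since parent and pseudogene were counted in the same library, their ratio does not depend on library size. In batch 1 the median percentage of the parent count was 4.84% in Control, 8.41% in DEX and 7.27% in DEX + RU-486 for Rpl21-ps8. It was 3.36%, 5.93% and 4.51% for Rpl21-ps10, and 3.38%, 6.79% and 5.38% for Rpl21-ps15. For Rpl31-ps9 it was 5.19%, 11.2% and 6.55%, and for Rpl31-ps14 0.727%, 1.81% and 0.965%. The order Control, DEX + RU-486, DEX held for all 5 medians, with overlapping libraries in each case.

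In batch 2 the same medians were closer together. They were 4.46%, 5.72% and 5.73% for Rpl21-ps8 in Control, DEX and DEX + RU-486, and 2.71%, 3.88% and 3.37% for Rpl21-ps10. They were 2.70%, 3.77% and 3.35% for Rpl21-ps15, 3.32%, 6.26% and 5.39% for Rpl31-ps9 and 0.695%, 0.956% and 0.784% for Rpl31-ps14. Fitted over both batches, the log2 ratio was higher in DEX than in Control by 0.63, 0.71, 0.73, 0.76 and 0.86 for Rpl21-ps8, Rpl21-ps10, Rpl21-ps15, Rpl31-ps9 and Rpl31-ps14. Within batch 1 these differences were 0.59, 0.57, 0.78, 0.74 and 1.05, and within batch 2 they were 0.66, 0.85, 0.68, 0.78 and 0.67. The fits with batch 2 include Control replicate 24, which had the lowest percentage of the parent count for each of these pseudogenes. They were not repeated without it, so no comparison of size between the batches is drawn from them. The median over all 135 RP pseudogenes and their parents was 0.49 in both batches together, and 120 of the 135 differences were positive. For DEX + RU-486 over Control the differences were 0.42, 0.58, 0.47, 0.75 and 0.39 in the same order, beside a median of 0.39 with 110 of 135 positive. In batch 2 that of Rpl31-ps9 (1.01) was above its value in DEX. The share of counts in all other processed pseudogenes had medians of 0.555% in Control, 0.748% in DEX and 0.561% in DEX + RU-486 in batch 1 and 0.462%, 0.534% and 0.498% in batch 2. These medians were thus higher in DEX than in Control in both batches, as the ratios were, but close to Control with DEX + RU-486 in batch 1. The libraries overlapped, at 0.514% to 0.784% in Control and 0.38% to 0.91% in DEX in batch 1. In batch 2 they were at 0.196% to 0.844% in Control and 0.379% to 0.596% in DEX. The part of this share in the ratios was not tested.

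DEX + RU-486 was compared with Control and with DEX in the same model, which shares the Control and the DEX libraries with the comparison above. Since the 7 genes were chosen with the levels in those libraries known, that choice tilts the first contrast towards higher and the second towards lower values, and nothing is read from the member counts below. In batch 1 Rpl31-ps9 had a lowest, median and highest level of 4.57, 10.2 and 11.8 CPM with DEX + RU-486, with 5 of 6 libraries above every Control library. Rpl21-ps15 had 6.54, 18.2 and 32.4 CPM, with 4 libraries above every Control library, and Rpl21-ps8 had 9.73, 21.04 and 34.7 CPM, with 5. Rpl21 had 235.0, 296.6 and 475.6 CPM and Rpl31 110.5, 115.3 and 208.7 CPM, with 2 libraries each above every Control library.

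The log2 fold changes of DEX + RU-486 over Control were positive for all 7 genes but none passed an adjusted p of 0.05 by edgeR (0% of 20355 genes were called higher). They were 0.22 ± 0.24 (SE) for Rpl21, 0.51 ± 0.29 for Rpl21-ps8, 0.60 ± 0.30 for Rpl21-ps10 and 0.58 ± 0.32 for Rpl21-ps15. They were 0.41 ± 0.27 for Rpl31, 0.93 ± 0.40 for Rpl31-ps9 and 0.74 ± 0.37 for Rpl31-ps14. Only Rpl31-ps9 had an unadjusted p under 0.05 (0.0254), against 4.19% of all genes in that direction, and DESeq2 called 0 of the 7 genes as well (0.231% of all genes higher). In batch 1 alone, Rpl21-ps10 (0.73, adjusted p = 0.0253), Rpl21-ps15 (0.92, adjusted p = 0.0246), Rpl31 (0.53, adjusted p = 0.0445) and Rpl31-ps9 (0.97, adjusted p = 0.0364) were called higher by edgeR, against 6.92% of all genes. As with DEX, RIN (5.6 to 7.9 against 7.8 to 9.2 in Control) and counts (17.4 to 26.7 M against 24.2 to 82.4 M) were lower in DEX + RU-486 there and cannot be told apart from the treatment. In the 28 libraries of RIN 6 or above only Rpl31-ps9 was called by edgeR (0.91, adjusted p = 0.0338), against 2.99% of all genes.

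No difference between DEX + RU-486 and DEX passed an adjusted p of 0.05 by edgeR for any of the 7 genes. The log2 fold changes of DEX + RU-486 over DEX were -0.13 ± 0.24 (SE) for Rpl21, -0.35 ± 0.29 for Rpl21-ps8, -0.29 ± 0.30 for Rpl21-ps10, -0.28 ± 0.32 for Rpl21-ps15, 0.04 ± 0.27 for Rpl31, -0.20 ± 0.39 for Rpl31-ps9 and -0.39 ± 0.37 for Rpl31-ps14. With all 36 libraries none had an unadjusted p under 0.05 by edgeR, nor an adjusted one by DESeq2, and over all 20355 genes 0% were called in either direction, with 1.23% lower at an unadjusted p under 0.05. In the 28 libraries of RIN 6 or above, Rpl21-ps8 (-0.53), Rpl21-ps15 (-0.61) and Rpl31-ps14 (-0.63) were lower at an unadjusted p under 0.05 by edgeR, with adjusted p = 0.489, 0.459 and 0.548, where 3.76% of all genes were. The difference between batches in the effect of DEX + RU-486 over Control was tested as an interaction, and its smallest adjusted p among the 7 genes was 0.777 by edgeR (Rpl21-ps15).

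**Figure D4:**
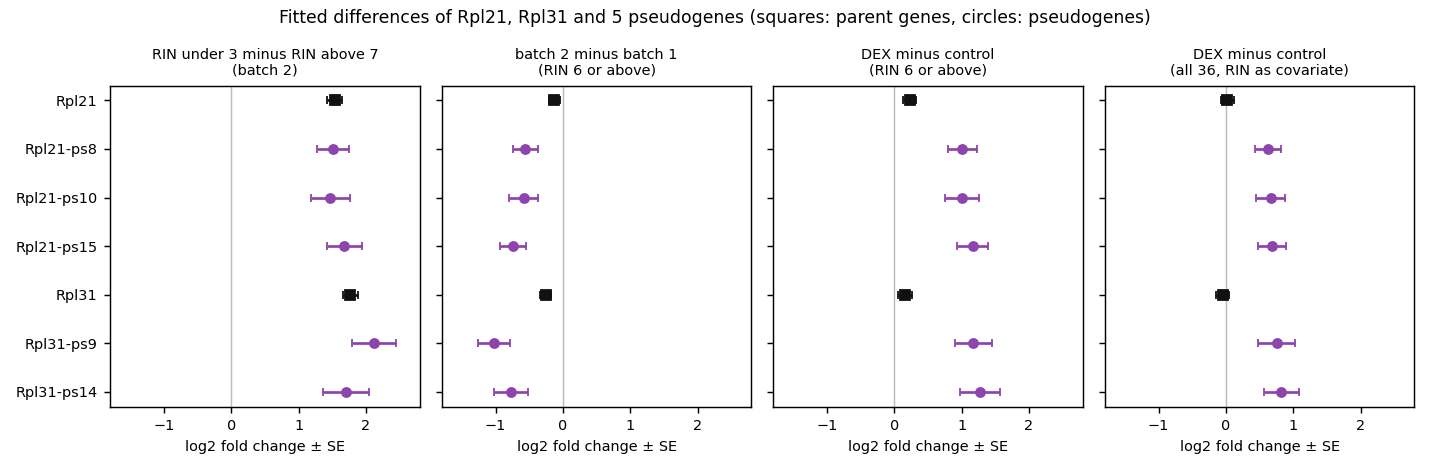
Fitted log2 fold changes with bars of 1 SE to either side (horizontal axis) for Rpl21, Rpl31 (squares) and the 5 pseudogenes (circles), from left to right between RIN under 3 and RIN above 7 in batch 2, between batches at RIN 6 or above, and between DEX and Control at RIN 6 or above and in all 36 libraries with RIN as a covariate. The differences by RIN shown are 1.47 to 2.11 with TMM scaling, and are 0.56 to 1.23 with library totals.

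All 7 genes were higher in the libraries of batch 2 with the lowest RNA integrity. Rpl21 was between 544.7 and 1070 CPM (median 724.8) in the 6 libraries of RIN under 3 and between 188.8 and 334.9 CPM (median 269.1) in the 12 libraries of RIN above 7. Rpl31 was between 250.5 and 413.7 CPM (median 319.9) against 68.6 and 110.2 CPM (median 101.7). Rpl21-ps8 was between 29.02 and 58.3 CPM (median 36.9) against 2.21 and 26.7 CPM (median 13.1). For these genes and for Rpl31-ps14, with 1.90 to 3.48 CPM against 0.154 to 1.39 CPM, the 2 sets of libraries did not overlap, as for 8.04% of all genes with RIN under 3 higher.

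Of the remaining pseudogenes, Rpl21-ps10 was between 17.2 and 37.0 CPM (median 24.5) at RIN under 3 and between 0.806 and 18.5 CPM (median 8.24) at RIN above 7. Rpl21-ps15 was between 15.8 and 40.6 CPM (median 28.1) against 1.70 and 19.97 CPM (median 8.41). Rpl31-ps9 was between 6.01 and 26.9 CPM (median 19.3) against 0.48 and 7.78 CPM (median 4.11). For each of these 3 genes, 5 of the 6 libraries of RIN under 3 were above every library of RIN above 7.

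With treatment as a covariate, all 7 genes were called higher at RIN under 3, against 28.4% of all genes in that direction (edgeR quasi-likelihood test, Benjamini-Hochberg adjusted over 20355 genes). On the log2 scale the difference was 1.53 ± 0.11 (SE, adjusted p = 2.97e-10) for Rpl21 and 1.76 ± 0.11 (adjusted p = 5.4e-11) for Rpl31. It was 1.50 ± 0.24 (adjusted p = 1.7e-05) for Rpl21-ps8, 1.47 ± 0.29 (adjusted p = 0.000232) for Rpl21-ps10 and 1.68 ± 0.26 (adjusted p = 1.23e-05) for Rpl21-ps15. It was 2.11 ± 0.32 (adjusted p = 1.18e-05) for Rpl31-ps9 and 1.70 ± 0.34 (adjusted p = 0.000209) for Rpl31-ps14. The same test called 82 of 86 RP genes higher, with a median of 1.58, and 102 of 135 RP pseudogenes, with a median of 1.56, beside 1.47 to 2.11 for the 7 genes. Of the 11 other tested Rpl21 and Rpl31 pseudogenes, 8 were called higher, among them Rpl31-ps8 (1.91), Rpl31-ps11 (2.15) and Rpl21-ps12 (1.28).

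These sizes rest on the scaling. The TMM factors, which adjust library totals for composition, were between 0.43 and 0.784 in the 6 libraries of RIN under 3. Without them the median log2 difference over all genes was -0.88 instead of 0.04, Rpl21 was at 0.58, Rpl31 at 0.82 and Rpl31-ps9 at 1.23, and 5 of the 7 genes were called, against 8.1% of all genes, without Rpl21-ps10 (adjusted p = 0.0988 by edgeR) and Rpl31-ps14 (adjusted p = 0.0653 by edgeR).

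No difference between pseudogenes and their parents by RIN was detected in batch 2. The median percentage of the parent count was 5.48% at RIN under 3 and 5.54% at RIN above 7 for Rpl21-ps8, 3.45% and 3.26% for Rpl21-ps10, and 3.46% and 3.12% for Rpl21-ps15. It was 6.48% and 4.45% for Rpl31-ps9 and 0.763% and 0.747% for Rpl31-ps14. The log2 ratio to the parent differed by 0.11 ± 0.29 (SE), 0.16 ± 0.37, 0.21 ± 0.31, 0.51 ± 0.38 and 0.07 ± 0.35, and none passed an adjusted or unadjusted p of 0.05 by limma. Among all 135 pairs 0.741% were called higher and 1.48% lower. Without Control replicate 24 the first 2 of these differences were -0.08 and -0.09, and that of Rpl31-ps9 was 0.31.

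The pseudogenes and Rpl31 were lower in batch 2 than in batch 1. Among libraries of RIN 6 or above, 16 in batch 1 and 12 in batch 2, Rpl21-ps15 was between 6.54 and 26.3 CPM (median 15.9) in batch 1 and between 1.70 and 19.97 CPM (median 8.41) in batch 2. Rpl31-ps9 was between 2.67 and 14.3 CPM (median 9.34) against 0.48 and 7.78 CPM (median 4.11). Rpl21 was between 235.0 and 399.8 CPM (median 284.0) against 188.8 and 334.9 CPM (median 269.1). The ranges of the 2 batches overlapped for each of these genes, with the pseudogene medians further apart than that of the parent.

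Of the 7 genes, 6 were called lower in batch 2, against 24.7% of all genes (edgeR with treatment as a covariate). On the log2 scale the difference was -0.56 ± 0.18 (SE, adjusted p = 0.0134) for Rpl21-ps8, -0.58 ± 0.21 (adjusted p = 0.0232) for Rpl21-ps10, -0.74 ± 0.19 (adjusted p = 0.00189) for Rpl21-ps15, -1.02 ± 0.23 (adjusted p = 0.000565) for Rpl31-ps9 and -0.77 ± 0.25 (adjusted p = 0.012) for Rpl31-ps14. Rpl31 was lower by less, -0.26 ± 0.09 (adjusted p = 0.014), and Rpl21 was not called, with -0.13 ± 0.08 (adjusted p = 0.188). Rpl31 was not called with upper-quartile factors (adjusted p = 0.0987 by edgeR) or library totals (adjusted p = 0.0947 by edgeR), nor Rpl21-ps10 with upper-quartile factors (adjusted p = 0.0544 by edgeR). RP genes as a class had 72 of 86 members lower (median -0.33) and RP pseudogenes 62 of 135 (median -0.62). In the Control libraries alone, 0 of the 7 genes were called by edgeR at an adjusted or unadjusted p under 0.05, with log2 fold changes from -0.80 (Rpl31-ps9) to -0.07 (Rpl31), while 20.5% of all genes were called lower and 24.3% had an unadjusted p under 0.05.

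For the log2 ratio to the parent, all 5 pseudogenes were lower in batch 2 and 2 of them passed an adjusted p of 0.05 over the 135 pairs by limma, of which 14.1% did. These were Rpl31-ps9, lower by 0.96 ± 0.25 (SE, adjusted p = 0.0305 by limma), and Rpl21-ps15, lower by 0.67 ± 0.18 (adjusted p = 0.0305 by limma). The other 3 differences were -0.51 ± 0.19 for Rpl21-ps8 (adjusted p = 0.0558 by limma), -0.64 ± 0.23 for Rpl21-ps10 (adjusted p = 0.0514 by limma) and -0.55 ± 0.25 for Rpl31-ps14 (adjusted p = 0.0857 by limma). The median over all pairs was -0.48. These sizes rested in part on Control replicate 24. Without it Rpl31-ps9 and Rpl21-ps15 were still called (both adjusted p = 0.0415 by limma), against 2.96% of all pairs, with differences of -0.75 and -0.52. Rpl21-ps8 was then at -0.34 and Rpl21-ps10 at -0.39, and the median over all pairs at -0.29. The share of counts in all other processed pseudogenes was also lower in batch 2, with medians of 0.471% against 0.58% in the same libraries, and its part in these ratios was not tested.

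Within batch 1 RIN ran from 3.9 to 9.2, with DEX replicate 12 alone at 3.9 and all other libraries at 5.6 or above. The slope of RIN was fitted there with treatment as a covariate. Rpl21 had a slope of -0.25 ± 0.05 (SE, adjusted p = 0.00193 by edgeR) on the log2 scale for each unit of RIN, and Rpl31 one of -0.27 ± 0.05 (adjusted p = 0.00116 by edgeR), so both parents were lower where RIN was higher. These were the 2 of 7 genes called by edgeR, against 7.92% of all genes in that direction. With library totals in place of TMM neither was called, at -0.03 (adjusted p = 0.638 by edgeR) and -0.05 (adjusted p = 0.474 by edgeR), and the median over all genes was 0.23. With TMM, 60 of 86 RP genes were called lower (median -0.20) and 8 of 135 RP pseudogenes (median -0.07). The pseudogenes had slopes of -0.09 ± 0.13 (Rpl21-ps8), -5.67e-05 ± 0.20 (Rpl21-ps10), -0.16 ± 0.13 (Rpl21-ps15), 0.20 ± 0.17 (Rpl31-ps9) and -0.43 ± 0.18 (Rpl31-ps14), and none was called by edgeR. DESeq2 called Rpl31-ps14 as well (adjusted p = 0.0401), 3 of the 7 genes against 9.84% of all genes.

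The slope of the ratio to the parent was positive for 4 of the 5 pseudogenes and was called for Rpl31-ps9 only, at 0.58 ± 0.15 (SE, adjusted p = 0.0298 by limma), against 8.15% of the 135 pairs. These slopes rested on 1 library. Without DEX replicate 12, of RIN 3.9, the ratio of Rpl31-ps9 had a slope of -0.07 and 0 of the 5 ratios and 0 of all 135 pairs were called, while 4 of the 7 genes had a called negative slope by edgeR, against 5.7% of all genes. In that library Rpl21 (497.0 CPM) and Rpl31 (197.8 CPM) were the highest of the 6 DEX libraries of batch 1, and Rpl31-ps9 (2.34 CPM, 37 counts) was the lowest.

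**Figure D5:**
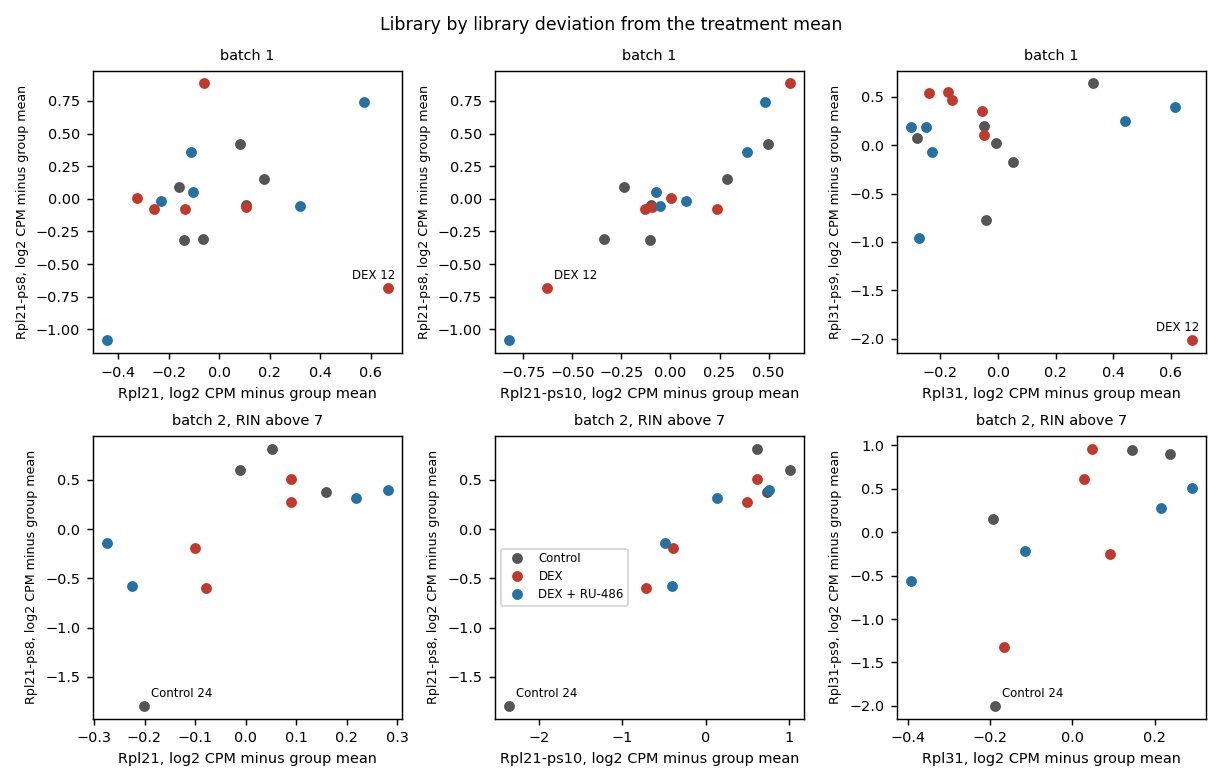
Deviation of each library from the mean of its treatment group on the log2 CPM scale, for Rpl21-ps8 against Rpl21 (left), Rpl21-ps8 against Rpl21-ps10 (middle) and Rpl31-ps9 against Rpl31 (right), in batch 1 (18 libraries, top) and in the 12 batch 2 libraries of RIN above 7 (bottom). The pseudogene pair lies along 1 line in both rows (r = 0.93 and 0.96), DEX replicate 12 lies apart from the other libraries in the panels with a parent in batch 1, and Control replicate 24 is lowest for the pseudogenes in batch 2.

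Whether a pseudogene followed its parent from library to library was tested after removing the treatment means, within batch 1 (18 libraries) and within the 12 batch 2 libraries of RIN above 7, since RIN falls into separate clusters. P-values come from 100000 permutations within treatment and were adjusted over the 135 pairs of each set of libraries. In batch 1 none of the 5 correlations passed, against 7.41% of all pairs with a positive one that did. Pearson's r was 0.21 (permutation p = 0.497) for Rpl21-ps8, 0.14 (permutation p = 0.638) for Rpl21-ps10, 0.48 (permutation p = 0.0929) for Rpl21-ps15, -0.28 (permutation p = 0.264) for Rpl31-ps9 and 0.55 (permutation p = 0.0559) for Rpl31-ps14. Spearman's rho was 0.23, 0.25, 0.38, -0.01 and 0.40 in the same order (permutation p = 0.389, 0.334, 0.148, 0.957 and 0.133), and the adjusted p of r was between 0.215 and 0.853. Without the 2 libraries farthest from the median of the parent, r was 0.41, 0.40, 0.56, 0.21 and 0.35, and without DEX replicate 12 alone it was 0.61, 0.57, 0.73, 0.42 and 0.62.

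In the 12 batch 2 libraries of RIN above 7, the 5 correlations were similar to each other. Rpl21-ps8 had r = 0.66 (permutation p = 0.00761) and rho = 0.60 (permutation p = 0.0207), Rpl21-ps10 r = 0.69 (permutation p = 0.00415) and rho = 0.70 (permutation p = 0.00949), and Rpl21-ps15 r = 0.68 (permutation p = 0.00155) and rho = 0.71 (permutation p = 0.00106). Rpl31-ps9 had r = 0.66 (permutation p = 0.00563) and rho = 0.62 (permutation p = 0.0251), and Rpl31-ps14 r = 0.59 (permutation p = 0.0392) and rho = 0.46 (permutation p = 0.168). After adjustment over 135 pairs, r had a p of 0.108 for 4 of them and 0.166 for Rpl31-ps14, and 0% of all pairs passed. Without the 2 libraries farthest from the median of the parent, r was 0.75, 0.69, 0.81, 0.70 and 0.65. Without Control replicate 24, r was 0.71, 0.77, 0.70, 0.67 and 0.53 (permutation p = 0.0521, 0.032, 0.0112, 0.00526 and 0.0687). The median r over all 135 pairs was 0.25 in batch 1 and 0.36 here. Without DEX replicate 12 that of batch 1 was 0.41, and 15.6% of all pairs then passed with a positive r, with 0 of these 5 among them. Without Control replicate 24 the median here was 0.39. In the 6 libraries of RIN under 3 only 8 arrangements within treatment exist and no p below 0.25 can be reached, so no coefficient is given for them.

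The 3 Rpl21 pseudogenes lay closer to each other than to Rpl21 in both sets of libraries, which is given as a description because they may share reads and do share library and depth. In batch 1 (18 libraries) r was 0.93 for Rpl21-ps8 with Rpl21-ps10, 0.87 for Rpl21-ps8 with Rpl21-ps15 and 0.84 for Rpl21-ps10 with Rpl21-ps15. In the 12 batch 2 libraries of RIN above 7 these values were 0.96, 0.96 and 0.95, and without Control replicate 24 they were 0.85, 0.85 and 0.84. Rpl31-ps9 and Rpl31-ps14 had r = 0.90 with each other in batch 2, but in batch 1 only 0.17, below the 0.55 of Rpl31-ps14 with Rpl31, an order that turned round by rank (rho = 0.58 and 0.40). Without DEX replicate 12 these batch 1 values were 0.42 and 0.62. Between the families, Rpl21-ps8 and Rpl31-ps9 had r = 0.67 in batch 1 and 0.64 in batch 2, the latter falling to -0.02 without Control replicate 24. The 2 parents had r = 0.86 with each other in batch 1 and 0.72 in batch 2.

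The pseudogenes were also set beside the genes in whose introns they lie. Rpl21-ps8 and Mbp had r = 0.15 in batch 1 and 0.22 in the batch 2 libraries of RIN above 7. Rpl31-ps9 and Thsd7b had r = -0.08 and -0.21, and Rpl21-ps15 and Wnk3 had -0.26 and -0.68. These coefficients are likewise a description of 18 and 12 libraries. Without DEX replicate 12 those of batch 1 were 0.53 for Mbp, 0.16 for Thsd7b and -0.40 for Wnk3.

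The genes whose pattern was most like that of each of the 7 were found by Pearson's r of log2 CPM over the 28 libraries of RIN 6 or above, with the mean of each batch and treatment removed, among 20326 other genes. For Rpl21 they were the RP genes Rpl37 (0.92), Rpl3 (0.91) and Rpl26 (0.91). For Rpl31 they were Rack1 (0.92), whose protein is a component of the small ribosomal subunit, Rps28 (0.91) and Rpl32 (0.90). Of the 86 RP genes, 43 and 56 were among the 100 genes most like Rpl21 and Rpl31. These numbers were 37 and 41 in the 16 batch 1 libraries, where Use1 (0.97) was nearest to Rpl21, and 18 and 31 in the 12 batch 2 libraries, where Ezh2 (0.95) was among the 3 nearest.

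The pseudogenes had other neighbours. They were the processed pseudogenes Gm9843 (0.96), Gm20900 (0.96) and AC166779.2 (0.95) for Rpl21-ps8, Gm9794 (0.98), AC166779.2 (0.97) and Gm6170 (0.96) for Rpl21-ps10, and Gm20900 (0.95), Rpl31-ps11 (0.95) and Gm11826 (0.95) for Rpl21-ps15. They were the processed pseudogenes Gm12816 (0.91), Rpsa-ps2 (0.88) and Gm13841 (0.88) for Rpl31-ps9. For Rpl31-ps14 they were Padi2 (0.81), which encodes a peptidylarginine deiminase, and the processed pseudogenes Gm5292 (0.76) and Gm10179 (0.75). Some of these names changed with the libraries used. Without Control replicate 24 the 3 nearest to Rpl31-ps14 were the protein-coding genes Padi2, Shh and Efcab14. In the 16 batch 1 libraries Mro and Sowahb were nearest to Rpl31-ps14, Mcam was nearest to Rpl31-ps9 and H1fx was among the 3 nearest to Rpl21-ps8, and in the 12 batch 2 libraries Eif3j2 was nearest to Rpl21-ps15. The parent stood, among 20326 genes, at rank 806 (r = 0.54) for Rpl21-ps8, 818 (0.54) for Rpl21-ps10, 632 (0.62) for Rpl21-ps15, 848 (0.50) for Rpl31-ps9 and 904 (0.45) for Rpl31-ps14.

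Among the 100 genes most like each, 93 were processed pseudogenes for Rpl21-ps8, 94 for Rpl21-ps10, 90 for Rpl21-ps15, 86 for Rpl31-ps9 and 62 for Rpl31-ps14. For Rpl21 and Rpl31 there were 11 and 8, and processed pseudogenes made up 8.36% of all genes compared. Without Control replicate 24, the library with the smallest share of pseudogene counts, the numbers were 60, 64, 69, 43 and 26 for the pseudogenes and 16 and 9 for the parents. In the 16 batch 1 libraries of RIN 6 or above they were 53, 59, 76, 32 and 21 for the pseudogenes and 8 and 1 for the parents, and in the 12 batch 2 libraries of RIN above 7 they were 93, 92, 89, 79 and 60 for the pseudogenes and 4 and 7 for the parents.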

How the data were processed

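RNAseq of 36 libraries was used. The authors deposited raw counts per gene without normalization. The labels and methods name HISAT2 version 2.1.0, subread version 1.5.0-p2 and GRCm38, and poly(A) selection (labels) or total RNA (methods). Columns were mapped by sample title. Symbols, coordinates and transcript sequences came from GENCODE M21 (55227 of 55492 identifiers matched, with 5 transgene rows among the rest), and sequences were aligned with Biopython 1.88. Genes with a mean count above 5 (20355) were tested with edgeR 4.0.16 (TMM, quasi-likelihood test) in R 4.3.3, with DESeq2 1.42.0 as the alternative. Ratios, log2((pseudogene + 0.5)/(parent + 0.5)), were tested with limma 3.58.1 over 135 pairs. CPM used TMM factors, and log2 CPM a prior count of 2. Permutations used numpy 2.4.6. The genes and lists were chosen with earlier results of these data known. Genes named are the 7, the 2 highest other pseudogenes of each parent, overlapping genes and the 3 most alike. Calculations were tested on simulated data. No libraries held identical counts. Rpl31-ps14 had the lowest mean count of the 7 (28.5). Alternatives were other scalings, filters, covariates, pseudocounts, subsets and left-out libraries.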

Additional observations from a re-analysis of the deposited data

Results flagged for a closer look

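In each group of the 6 libraries of 1 treatment in 1 batch, a library was picked out where its gap to the next exceeded Dixon's 95% limit. This was tested for 72 groups of values, CPM of the 7 genes and percentages of the parent for the 5 pseudogenes, and 7 values were picked out where chance gives about 3.6. DEX replicate 12, of RIN 3.9, gave 3 of them. It had 497.0 CPM of Rpl21 against 249 to 336 CPM in the other 5 batch 1 DEX libraries, 198 CPM of Rpl31 against 105 to 120 CPM, and 2.34 CPM of Rpl31-ps9 against 10.5 to 14.3 CPM. DEX replicate 7, of RIN 6.2, had 44.6 CPM of Rpl21-ps8 against 15 to 24.3 CPM. DEX + RU-486 replicate 18, of RIN 5.6, had 4.08 CPM of Rpl31-ps14 against 0.4 to 1.72 CPM. In batch 2, Control replicate 20, of RIN 1.8, had 16.5 CPM of Rpl31-ps9 against 0.48 to 6.01 CPM. DEX + RU-486 replicate 34, of RIN 7.6, had a Rpl21-ps10 count of 5.24% of its parent against 2.9% to 3.56%.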

How the results depend on the processing

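No paired analysis was possible because the replicate numbers 1 to 36 are not shared between groups. For DEX + RU-486 against control, batch 1 alone called 4 genes and RIN 6 or above 1, and Rpl21 was at -0.046 with RIN as a covariate. For DEX + RU-486 against DEX, Rpl21 was at 0.026 in batch 1 alone and Rpl31 at -0.089 in batch 2 alone. For batch 2 against batch 1, Control libraries alone called 0 of the 7 genes and upper-quartile factors 4, while 4175 of 20352 and 3830 of 20355 genes were called lower in all. For the RIN slope in batch 1, 6 of the 7 genes were called lower without the treatment covariate (3163 of 20354 genes in all), when Rpl31-ps9 was at -0.27, and 4 without DEX replicate 12, when it was at -0.34. With library totals in place of TMM, a scaling added once the data had been seen that moves the median of all genes to 0.23, 1 of the 7 genes was called higher (Rpl31-ps9) and none lower, against 8171 and 283 of all 20354 genes, and Rpl21-ps8, Rpl21-ps10 and Rpl21-ps15 were at 0.14, 0.23 and 0.065. The slope of Rpl21-ps10, close to 0, was 0.00079 with upper-quartile factors and 0.021 without the count filter. For the ratio between batches, 4 pseudogenes were called with a pseudocount of 5 (25 of all 135 pairs) and 4 among pairs with a mean count of at least 20 (30 of all 78). For the ratio by RIN in batch 2, leaving out 1 library gave -0.077 to 0.21 for Rpl21-ps8, -0.086 to 0.26 for Rpl21-ps10, -0.062 to 0.32 for Rpl21-ps15, 0.31 to 0.69 for Rpl31-ps9 and -0.081 to 0.22 for Rpl31-ps14, which was at -0.024 with a pseudocount of 5. For the ratio slope, leaving out DEX replicate 12 gave 0 calls (0 of all 135 pairs) and -0.22, -0.041, -0.26, -0.068 and -0.56 for Rpl21-ps8, Rpl21-ps10, Rpl21-ps15, Rpl31-ps9 and Rpl31-ps14, the last at -0.13 with it. For the correlation with the parent, 2 pairs were called when treatment means were not removed (Rpl31-ps14 in batch 1, where 31 of all 135 pairs were, and Rpl21-ps15 in batch 2, where 8 were), and Rpl31-ps9 in batch 1 then had r = 0.12, and 0.42 without DEX replicate 12. Among the remaining recomputed values, 67 counts of genes and 459 values of single genes or pairs kept their direction and their side of the threshold, while for single ones 13 lost a call, 19 gained one and 11 moved beyond their spread. The cause was not tested.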
